A study of Mus musculus with 2 samples.

Results

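Tissue factor starts blood coagulation, and the plasminogen activators start the breakdown of its product, fibrin. The 7 genes described here are F3 (tissue factor, ENSMUSG00000028128), Tfpi (ENSMUSG00000027082), Thbd (ENSMUSG00000074743), Plau (ENSMUSG00000021822), Plaur (ENSMUSG00000046223), Plat (ENSMUSG00000031538) and Serpine2 (ENSMUSG00000026249), out of 34097 genes listed in each library. They were taken by symbol, and each symbol had 1 row. The set was selected on the CPM of these genes (defined below) in the control and knockdown cells of these same libraries, so their levels are given as a description, with no test.

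The study measured RNA in single cells of 2 mouse tumours by droplet sequencing (10x Genomics), where each RNA copy caught in a cell carries a unique molecular identifier (UMI) and is counted once. The tumours are labelled as lung cancer xenografts of LLC, the Lewis lung carcinoma line. Each tumour gave 1 library. The control tumour is labelled as control treatment, and the knockdown tumour carried a short hairpin RNA (shRNA) that knocks down GFPT2, an enzyme of the hexosamine pathway. The stated aim was to study the immune cells of the tumour and the communication between cells. The labels do not give the hairpin, its vector, the clone of LLC, the host strain, age or sex, or whether the control carried a hairpin. Each group has a single library and so no replicate check, and a difference between the libraries cannot be told apart from one between these 2 tumours or preparations.

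Tissue factor is a membrane protein that binds factor VII and with it activates factor X, which leads to thrombin and fibrin. Tissue factor pathway inhibitor (Tfpi) blocks that complex, and thrombomodulin (Thbd) turns thrombin towards activation of protein C. Plau (urokinase) and Plat (tissue-type activator) cut plasminogen into plasmin, which dissolves fibrin and other matrix proteins. Plaur is the receptor that holds urokinase on the cell surface, and Serpine2 (protease nexin-1) is a secreted inhibitor of thrombin, urokinase and plasmin. Tumour cells of many kinds are known to make tissue factor, and myeloid cells to make urokinase and its receptor.

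Of the members with at least 100 UMIs in tumour-like cells, F3 and Plaur are those whose ratio between the libraries had a range clear of 0, and the bases before their start sites are shown for that reason. Both come from RefSeq on GRCm38.p6, each 250 bases ending just before the annotated start, on the + strand and written 5′ to 3′. The F3 stretch is chr3:121723287-121723536 and the Plaur stretch is chr7:24462233-24462482. Capitals mark matches to the AP-1 letters TGANTCA and the Sp1 letters GGGCGG, on either strand.
F3: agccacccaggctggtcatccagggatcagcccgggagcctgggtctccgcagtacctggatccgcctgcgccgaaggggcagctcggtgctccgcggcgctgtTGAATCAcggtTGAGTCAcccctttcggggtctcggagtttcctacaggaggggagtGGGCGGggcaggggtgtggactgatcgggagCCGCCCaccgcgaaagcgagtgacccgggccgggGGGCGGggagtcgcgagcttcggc
Plaur: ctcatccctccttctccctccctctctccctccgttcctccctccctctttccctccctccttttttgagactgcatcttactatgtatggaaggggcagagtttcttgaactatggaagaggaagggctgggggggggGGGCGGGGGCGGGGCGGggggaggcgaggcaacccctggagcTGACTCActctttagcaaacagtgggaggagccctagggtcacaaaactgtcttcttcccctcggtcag

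The F3 stretch held 2 AP-1 matches, which begin at -146 and -135 counted from the start site, and 3 Sp1 matches at -89, -58 and -24. The Plaur stretch held 1 AP-1 match at -69 and 3 Sp1 matches at -111, -105 and -100. AP-1 letters were in 6.75% and Sp1 letters in 32.7% of 32851 promoter stretches of the same length. Searches for an NF-kB motif (in 1.41% of stretches) and the E-box CACGTG (in 6.02%) found no match in either stretch, and no searched motif overlapped another kind. These matches describe letters in a window and do not show binding. Of the other members, Tfpi and Serpine2 had entries as well, and Tfpi had 2 annotated starts. Thbd, Plau and Plat had none.

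The library of the control tumour held 11977 cells and that of the knockdown tumour 12853, of which 10662 and 11450 were kept, with 138972698 and 118546004 UMIs. Only 37 cell barcodes occurred in both libraries. Cells were put in classes by fixed marker levels, which gave 4986 control and 5211 knockdown tumour-like cells (no Ptprc UMI, few Lyz2 UMIs and at least 5000 UMIs), 3990 and 4557 macrophages (at least 10 C1q UMIs per 10000) and 144 and 40 monocytes (at least 20 Lyz2 and under 5 C1q UMIs per 10000). T cells numbered 401 and 365, and NK cells 50 and 47. The tumour-like cells had little Xist (2.88 and 3.99 CPM, UMIs per 1000000) beside the macrophages (493 and 393 CPM), and high Hmga2 (219.7 and 218.5 CPM). They also had collagen RNA (Col3a1 at 1410.3 and 1643 CPM) and almost no Krt8 or Krt18, keratins of epithelial cells, at under 10 UMIs each per library. Gfpt2 in tumour-like cells had 212 UMIs in the control tumour and 57 in the knockdown tumour, 2.05 and 0.650 CPM, a log2 ratio of -1.65 (-2.25 to -1.08). Of these UMIs, 138 control and 7 knockdown ones lay in the Krt16 Klk8 state and 36 and 7 in the Csmd3 Robo2 state (states are described below). In the other 5 groups the intervals of both libraries overlapped, with 14 UMIs in each library in cells of no state, 10 and 16 in cycling cells, 11 and 8 in matrix cells, 2 and 5 in Cryab Krt14 cells and 1 and 0 in Tnnt2 Tafa5 cells.

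Levels below are CPM, the summed UMIs of a gene per 1000000 UMIs of the same cells and library. Each range of a level is a 95% exact Poisson interval. A log2 ratio is knockdown over control, and its range is what both intervals together allow. These intervals cover counting error only. In summed counts, fewer cells with a gene and less RNA per cell cannot be told apart.

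F3, the trigger of coagulation, was mostly in tumour-like cells and was higher there in the knockdown tumour. Tumour-like cells held 90.3% of all F3 UMIs of the kept control cells and 86.9% of those of the knockdown cells. Control tumour-like cells had 10681 F3 UMIs, or 103 CPM (101 to 105), and knockdown ones 14466 UMIs, or 165 CPM (162 to 168). The intervals do not overlap, and the ratio was 1.60-fold, a log2 ratio of 0.68 (0.63 to 0.73). Among the other classes with at least 20 cells the next stood far lower. T cells were second at 19.9 CPM in the control tumour, within counting error of the classes below them. Macrophages were second at 45.9 CPM with the knockdown, where the interval of monocytes, from 1 UMI, reached 51.9 CPM. Dendritic cells, with 28 and 24 cells, had no F3 UMI in either library, with upper Poisson bounds of 17.3 and 18.2 CPM.

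**Figure D1:**
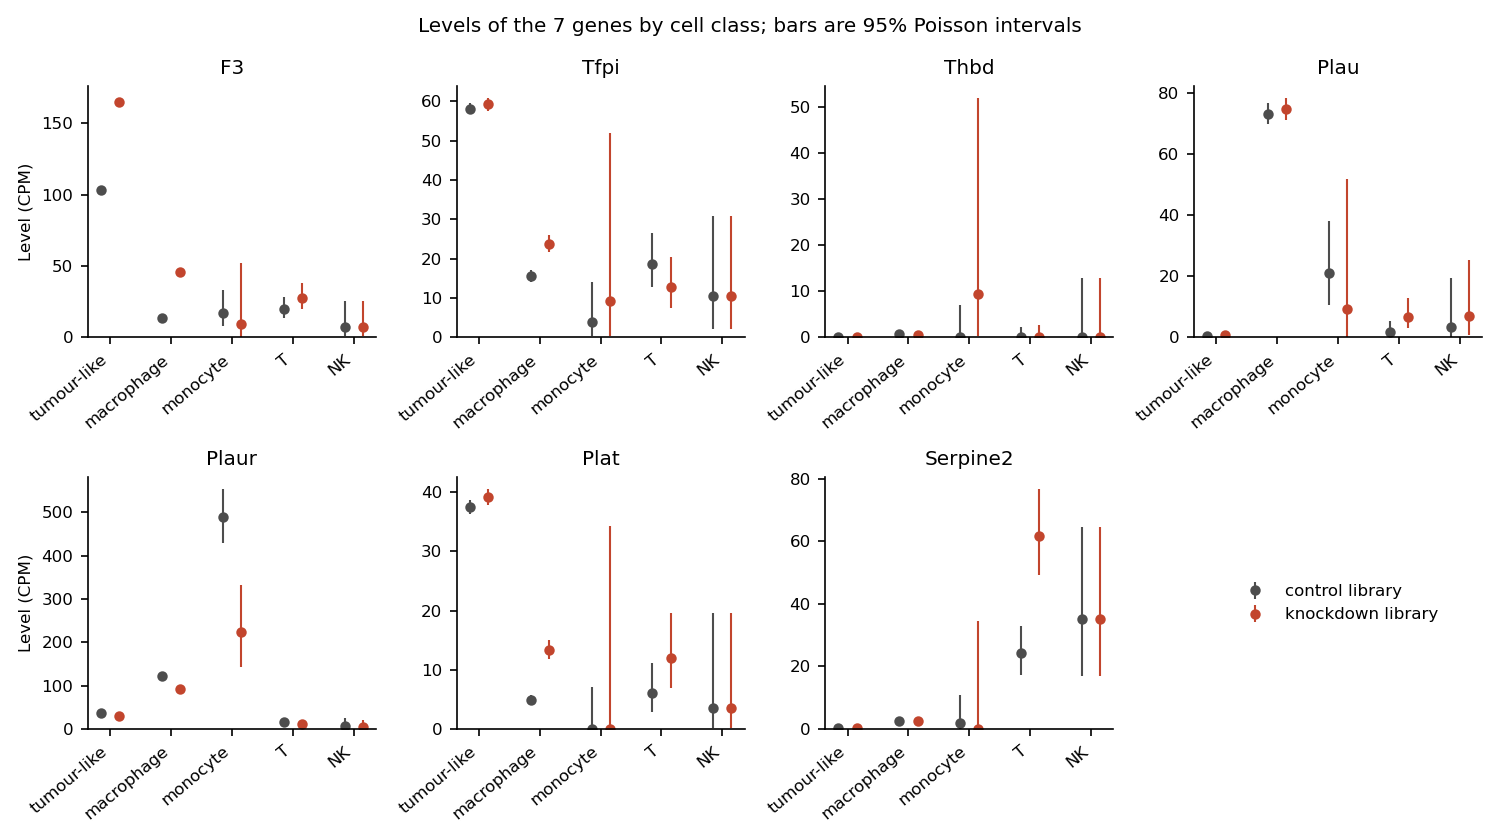
Levels of the 7 genes in CPM (y axis, separate linear scale per gene) in 5 cell classes (x axis). Points are the control (grey) and knockdown (red) libraries and bars are 95% Poisson intervals. F3, Tfpi and Plat stand highest in tumour-like cells, Plau in macrophages, Plaur in monocytes, and Serpine2 in NK and T cells.

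The share of cells with an F3 UMI also differed, as a higher level alone can make it do. With each tumour-like cell thinned to 5000 UMIs, so that depth is equal, F3 was found in 30.5% (29.2 to 31.8, exact Clopper-Pearson) of the 4986 control cells, against 42.0% (40.7 to 43.4) of the 5211 knockdown cells, with no cell left out. At the deposited depth, with median UMIs of 18744 and 14667, the shares were 54.1% and 64.3%. F3 was spread unevenly over the cells. After thinning, the 10% of control cells with the most F3 held 57.9% of its UMIs, against 49.4% in the knockdown tumour, and the highest single cells had 12 and 13 UMIs. T cells, which are not a known source of F3, had an F3 UMI in 5.24% of control and 3.84% of knockdown cells at median depths of 3080 and 2758 UMIs. Hmga2, a gene of the tumour-like cells, was at 83.9 and 42.1 CPM in those T cells, and F3 at 19.9 and 27.8 CPM. Whether the F3 of T cells comes from free RNA was not tested.

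**Figure D2:**
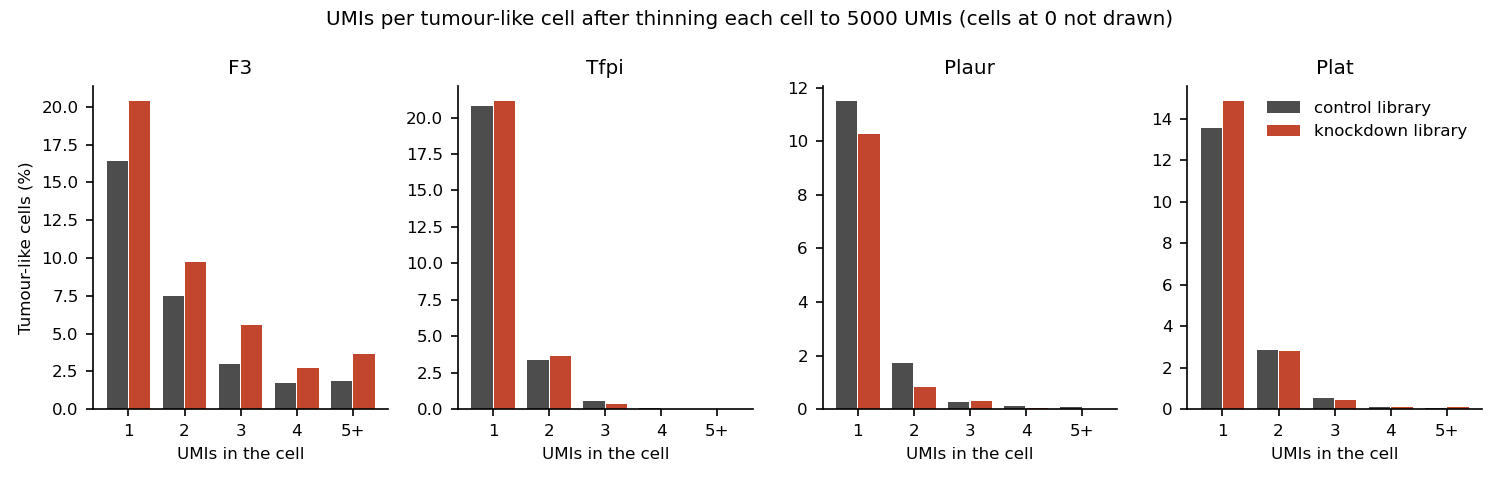
Share of tumour-like cells (y axis, percent) with 1, 2, 3, 4 or at least 5 UMIs (x axis) of F3, Tfpi, Plaur or Plat after thinning to 5000 UMIs per cell, for the control (grey) and knockdown (red) libraries. For F3 the knockdown bar is taller at every count, while for Tfpi and Plat the bars at 1 UMI differ little.

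Every tumour state had a higher F3 level in the knockdown tumour, though not beyond counting error under a stricter limit in 2 of them. States are ranges of a score: a cell takes the marker list on which it scores highest if that z-score is at least 1, and 470 control and 609 knockdown cells lay within 0.1 of that limit. The order of the states was the same in both libraries except for 1 pair of neighbours. Cells with high collagen and other matrix genes were highest, at 238 CPM (226 to 250) in the control tumour and 297 CPM (286 to 309) in the knockdown tumour. Hmga2 was lowest there of any state, at 79.3 and 100.6 CPM, against 219.7 and 218.5 CPM over all tumour-like cells. The part of other cell types in the F3 of the matrix state was not tested. Cells marked by Cryab, Krt14 and hypoxia genes were at 184 and 221 CPM, and cells marked by Csmd3 and Robo2 at 165 and 247 CPM. This last pair of states is the one whose order differed between the libraries.

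Cells in no state held 99.8 CPM of F3 in the control tumour and 147 CPM in the knockdown tumour, and cycling cells 79.9 and 125 CPM. The lowest levels were in cells marked by Krt16 and Klk8, at 52.1 CPM (47.2 to 57.3) and 109 CPM (96.2 to 123), and in cells marked by Tnnt2 and Tafa5, at 36.8 CPM (34.0 to 39.7) and 57.1 CPM (52.0 to 62.5). The log2 ratio ran from 0.27 (0.14 to 0.39) in the Cryab Krt14 state to 1.07 (0.75 to 1.38) in the Krt16 Klk8 state, and its range lay above 0 in all 7 groups of cells. With states taken only from a z-score of 2, the range held 0 in the Cryab Krt14 state, at 0.08 (-0.13 to 0.29), and in the matrix state, at 0.28 (-0.19 to 0.75), and the ratio of cycling cells was 1.11 (0.64 to 1.59).

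State shares differed between the libraries too. The matrix state held 9.41% of control and 12.8% of knockdown tumour-like cells, and the Csmd3 Robo2 state 6.18% and 11.9%, both states with high F3, while the Cryab Krt14 state, also high in F3, held 10.95% and 10.90%. Among states with F3 below the class level, Tnnt2 Tafa5 cells were at 15.7% and 8.71% and Krt16 Klk8 cells at 7.06% and 2.69%, but cycling cells at 14.2% and 17.6%. With the control tumour's mix of states given to both libraries, the F3 log2 ratio was 0.52 in place of 0.68.

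**Figure D3:**
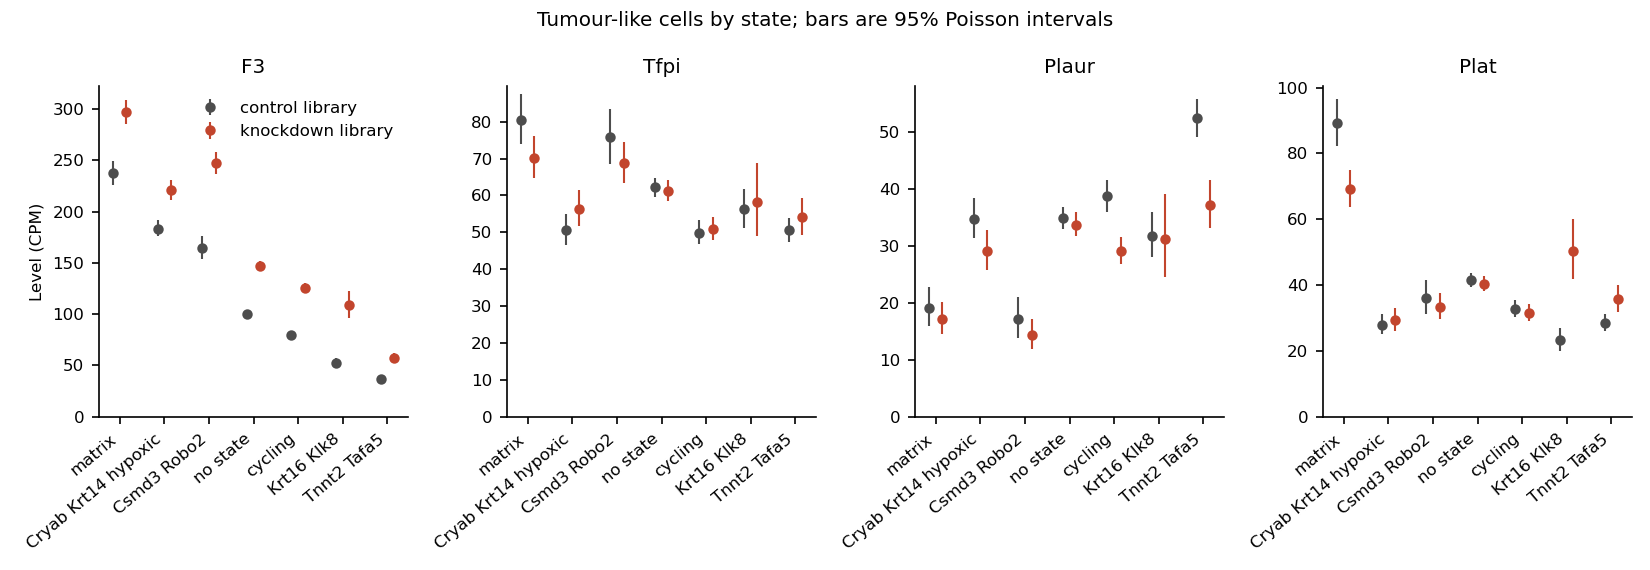
Levels of F3, Tfpi, Plaur and Plat in CPM (y axis, linear from 0, separate scale per gene) in tumour-like cells by state (x axis), in the control (grey) and knockdown (red) libraries, with 95% Poisson intervals. The red F3 point lies above the grey point in all 7 groups, from 36.8 against 57.1 CPM in Tnnt2 Tafa5 cells to 238 against 297 CPM in matrix cells.

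Other genes followed F3 over groups of cells, and different genes followed it weakly over single cells. Over 30 groups (states and classes in each library), the genes with the highest Pearson correlation with F3 on the log2(CPM + 1) scale, of 13260 genes, were Dpt (0.94), Vgll3 (0.93), Stra6 (0.93), Phldb2 (0.92) and Eda2r (0.92). The groups share libraries and sources, so this is a description. Over single thinned tumour-like cells the top 5 were Col3a1 (0.32 in the control and 0.27 in the knockdown tumour), Ebf1 (0.29 and 0.25), Matn2 (0.27 and 0.24), H19 (0.29 and 0.23) and Fn1 (0.24 and 0.22). Col3a1 and Fn1 belong to the list that defined the matrix state. These are weak values in sparse counts.

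Tfpi, the inhibitor of the tissue factor complex, was at the same level in tumour-like cells of both libraries within counting error. It stood at 58.1 CPM (56.6 to 59.6) in the control tumour and 59.2 CPM (57.6 to 60.8) in the knockdown tumour, a log2 ratio of 0.03 (-0.05 to 0.10). Tumour-like cells held 88.0% and 84.9% of its UMIs. Its level varied less across states than that of F3, between 49.9 CPM in cycling and 80.5 CPM in matrix cells of the control tumour, and between 50.9 and 70.2 CPM in the same states of the knockdown tumour. In no state did the range of its ratio leave 0. After thinning it was found in 24.8% of control and 25.2% of knockdown cells.

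Thbd, the thrombin cofactor of endothelial cells, was nearly absent from these libraries. It had 21 UMIs over all kept cells of each library, of which 17 and 12 were in macrophages and 1 and 3 in tumour-like cells. The 3 knockdown UMIs in tumour-like cells all lay in cells that also met the endothelial rule. Only 10 control and 13 knockdown cells met that rule, so Thbd in endothelium could not be measured at this depth.

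Plat, the tissue-type activator, was a gene of tumour-like cells, which held 90.7% of its control and 85.1% of its knockdown UMIs. Tumour-like cells held it at 37.6 CPM (36.4 to 38.8) in the control tumour and 39.1 CPM (37.8 to 40.5) in the knockdown tumour, a log2 ratio of 0.06 (-0.03 to 0.15). This near equality covered states that differed in opposite directions. In matrix cells Plat was lower in the knockdown tumour, at 89.2 CPM (82.2 to 96.6) against 69.1 CPM (63.6 to 74.9), a log2 ratio of -0.37 (-0.60 to -0.13). In Krt16 Klk8 cells it was higher, at 23.3 CPM (20.1 to 26.9) against 50.3 CPM (41.8 to 60.2), a log2 ratio of 1.11 (0.64 to 1.58) from 186 and 121 UMIs. From a z-score of 2 the ratio was -0.36 (-1.21 to 0.48) in matrix cells, with a range that held 0, and 1.41 (0.80 to 2.02) in Krt16 Klk8 cells. Tnnt2 Tafa5 cells were at 28.5 and 35.8 CPM, with a log2 ratio of 0.33 (0.03 to 0.62), and in the other 4 groups the range of the ratio held 0.

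Plaur, the urokinase receptor, was lower in the knockdown tumour in tumour-like cells, at 36.4 CPM (35.2 to 37.6) against 28.9 CPM (27.8 to 30.1), a log2 ratio of -0.33 (-0.43 to -0.23). Tumour-like cells held 50.9% and 52.5% of its UMIs and macrophages 38.8% and 41.3%, so Plaur was shared between both classes. Tnnt2 Tafa5 cells, the lowest in F3, had the most Plaur in both libraries, at 52.4 CPM (49.1 to 55.9) and 37.1 CPM (33.0 to 41.5). The knockdown value was within counting error of cells of no state (33.7 CPM, 31.7 to 35.9) and Krt16 Klk8 cells (31.2 CPM, 24.5 to 39.1). Csmd3 Robo2 cells, among the highest in F3, had the least, at 17.1 CPM (13.8 to 21.0) and 14.3 CPM (11.9 to 17.1). In both libraries this was within counting error of matrix cells, at 19.1 CPM (16.0 to 22.7) and 17.2 CPM (14.5 to 20.2). The ratio was below 0 over its whole range in Tnnt2 Tafa5 cells, at -0.50 (-0.76 to -0.24), and in cycling cells, at -0.41 (-0.63 to -0.19). It was -0.05 (-0.22 to 0.12) in cells of no state. From a z-score of 2 the range held 0 in cycling cells, at -0.57 (-1.96 to 0.77), and lay below 0 in Tnnt2 Tafa5 cells, at -0.52 (-0.91 to -0.14), and in cells of no state, at -0.29 (-0.40 to -0.18). Leaving out cells with a UMI of C1qa, C1qb, C1qc, Tyrobp, Pecam1 or Cdh5 gave -0.20 for all tumour-like cells.

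The share of cells with F3 was lower among tumour-like cells that had Plaur, with intervals that do not overlap. These shares pool all tumour states, which differed in both F3 and Plaur, and the part of the states was not tested. After thinning, an F3 UMI was found in 25.1% (21.9 to 28.5) of control cells with Plaur and in 31.3% (29.9 to 32.7) of those without. In the knockdown tumour the shares were 33.3% (29.5 to 37.2) and 43.1% (41.7 to 44.6). Plat went the other way in the control tumour, where F3 was in 37.3% (34.1 to 40.7) of control cells with Plat and 29.1% (27.7 to 30.5) of those without. In the knockdown tumour these shares were 45.1% (41.9 to 48.3) and 41.3% (39.8 to 42.8), with intervals that overlap. For Tfpi the shares were 32.6% and 29.8% in the control tumour and 43.1% and 41.6% in the knockdown tumour, with overlapping intervals.

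Over the 30 groups, Tfpi and Plat followed each other (Pearson 0.94), and each followed F3 less closely (0.80 and 0.79). The 5 genes nearest to Tfpi were Hoxd3os1, Emx2, Cog4, Nnmt and Copz2, at 0.95 to 0.96. Those nearest to Plat were Dync2i1, Tfpi, Ctxn1, 1110038F14Rik and Ppic, at 0.94 to 0.95. Plaur was nearest to Cebpb (0.92), then 3110082I17Rik, Atp2b1, Ccl9 and Dmxl2 at 0.88 to 0.89. Plaur with F3 gave -0.08 and with Plau 0.61. The groups span tumour states and immune classes. Over single thinned tumour-like cells, F3 gave 0.02 (control) and 0.03 (knockdown) with Tfpi, and 0.06 and 0.02 with Plat. With Plaur it gave -0.04 and -0.07.

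Plau (urokinase) and Serpine2 were low in tumour-like cells. Plau had 56 control and 72 knockdown UMIs there (0.540 and 0.821 CPM), and Serpine2 14 and 31 UMIs (0.135 and 0.354 CPM), a log2 ratio of 1.39 (0.08 to 2.76) for Serpine2 and 0.60 (-0.13 to 1.34) for Plau. The Serpine2 UMIs lay in only 9 control and 16 knockdown cells, while its range takes each UMI as independent and so is too narrow. The levels of both genes are far below those of the same genes in macrophages, and the macrophage gene C1qa was at 50.3 and 57.0 CPM in the tumour-like cells.

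In tumour-like cells 12372 genes had at least 100 UMIs in 1 library, and 4 of the 7 members (F3, Tfpi, Plaur and Plat) were among them. Of all these genes 288 (2.33%) were at least 1.5-fold higher in the knockdown tumour and 91 (0.736%) at least 1.5-fold lower. F3 was the 1 member past that fold, higher, and no member was past it in the other direction. With the control mix of states F3, at 0.52, was under the fold. With at least 30 UMIs, 6 members were measured and 3 were higher, as Plau and Serpine2 joined F3, beside 4.92% of 14791 genes. The members were chosen with this contrast known, so nothing is read from the count. The median log2 ratio over all genes tested was 0.04.

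Of 48 other genes of coagulation and fibrinolysis, 17 had at least 100 UMIs in tumour-like cells, with a median log2 ratio of 0.06. None was at least 1.5-fold higher and 1 was lower, Vwf, the platelet-binding protein of endothelium, at 1.07 and 0.525 CPM. Of its 111 control and 46 knockdown UMIs, 75 and 34 lay in the 5 and 9 cells that also met the endothelial rule. The 5 with the highest levels were Anxa2 (1896 and 1817 CPM) and S100a10 (1444 and 1267 CPM), which together bind plasminogen at the cell surface, Anxa5 (681 and 657 CPM), Eno1 (503 and 489.9 CPM) and Serpinb6a (377 and 392 CPM). The thrombin receptor gene F2r was at 7.20 and 8.32 CPM.

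In macrophages Plau and Plaur were the abundant members. Plau was almost only there, with 95.1% of its control and 93.8% of its knockdown UMIs. It stood at 73.2 CPM (69.8 to 76.7) in the control tumour and 74.6 CPM (71.0 to 78.4) in the knockdown tumour, a log2 ratio of 0.03 (-0.11 to 0.17). Scaled by TMM factors the ratio was -0.11, so it has no settled direction. Plaur was at 121.4 CPM (117.0 to 125.9) and 92.8 CPM (88.7 to 96.9), a log2 ratio of -0.39 (-0.50 to -0.27). Thinned to 2000 UMIs, with 605 control and 985 knockdown cells left out, Plau was found in 12.4% and 12.1% of macrophages and Plaur in 18.9% and 16.2%. At the deposited depth, with medians of 5380 and 3951 UMIs, the shares were 25.7% and 20.8% for Plau and 36.5% and 25.7% for Plaur. Plau was found in 12.3% (9.88 to 15.1) of control macrophages with Plaur and 12.4% (11.2 to 13.7) of those without, and in 13.3% and 11.8% of knockdown macrophages.

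Levels of both genes differed between macrophage states. Plau was highest in cells with interferon-induced genes, at 99.9 CPM (87.0 to 114) in the control tumour and 140.6 CPM (128 to 154) in the knockdown tumour, a log2 ratio of 0.49 (0.17 to 0.82). In cells of no state it was 67.9 CPM (63.5 to 72.6) and 57.2 CPM (53.2 to 61.3), a log2 ratio of -0.25 (-0.45 to -0.05). With states taken from a z-score of 2 the ranges held 0, at 1.24 (-0.17 to 2.75) in interferon cells and 0.04 (-0.11 to 0.19) in cells of no state. In the cells of no state at a z-score of 1, Hmga2 was at 45.9 and 125 CPM and F3 at 16.9 and 60.9 CPM, and the part of tumour-cell RNA in the Plau value was not tested. The interferon state held 10.3% of control and 18.0% of knockdown macrophages. Plaur was at 70.3 and 75.3 CPM in the interferon state, with a range of the ratio that held 0, and at 98.5 and 76.4 CPM in cells of no state, a log2 ratio of -0.37 (-0.54 to -0.20). Both groups lay below the Plaur level of all macrophages, 121.4 and 92.8 CPM. The remaining macrophages were a smaller share in the knockdown tumour. Cells marked by Arg1 and Mmp12 held 23.1% and 14.0%, and resting cells (Trem2, Apoe and C1q genes) 11.9% and 6.43%. The part of this mix in the lower Plaur of macrophages was not tested.

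F3, Tfpi and Plat were higher in the knockdown tumour among cells that met the macrophage rule, and genes of the tumour-like cells were higher with them. F3 was at 13.9 CPM (12.4 to 15.5) and 45.9 CPM (43.1 to 48.9), a log2 ratio of 1.72 (1.48 to 1.97). It was 0.91 without doublet removal and 0.50 at the doublet caller's own threshold. Tfpi was at 15.5 and 23.8 CPM, with a log2 ratio of 0.62 (0.34 to 0.89), and Plat at 4.85 and 13.4 CPM, with a log2 ratio of 1.47 (1.03 to 1.91). In the same cells Hmga2 was at 32.8 and 88.2 CPM and Col3a1 at 162 and 484 CPM. All 8 genes of the fibroblast list were detected there, at a summed 369 and 962 CPM, and the LLC list summed to 223 and 352 CPM, with 0 of its 10 genes at 0 in the control tumour and 1 in the knockdown tumour.

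The C1q level of the cell separated this. In cells with 10 to 30 C1q UMIs per 10000 (379 control and 716 knockdown cells), F3 was at 80.7 CPM (67.5 to 95.7) and 127 CPM (115 to 139), and Hmga2 at 228 and 252 CPM, near its level in tumour-like cells. In cells with 30 to 100 (441 and 898 cells), F3 was at 30.7 and 102.0 CPM and Hmga2 at 76.2 and 183 CPM. In cells with at least 100 (3170 and 2943 cells), F3 was at 6.59 CPM (5.51 to 7.82) and 7.77 CPM (6.37 to 9.39), from 131 and 107 UMIs, with Hmga2 at 12.02 and 16.5 CPM. In the 3608 and 3752 cells of the gate without an Hmga2 UMI, F3 was at 9.52 and 23.7 CPM, a log2 ratio of 1.32 (0.96 to 1.67), and Plat had a log2 ratio of 1.56 (0.93 to 2.21). Without an Hmga2 UMI and with under 5 collagen UMIs per 10000 the ratios were 0.17 and 0.47. In cells with at least 100 C1q UMIs per 10000 the F3 log2 ratio was 0.24 (-0.30 to 0.77), that of Tfpi 0.07 (-0.33 to 0.47) and that of Plat 0.59 (-0.27 to 1.46). The higher F3 of the macrophage gate was thus measured in its low-C1q cells, and in high-C1q cells the depth does not separate the libraries.

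**Figure D4:**
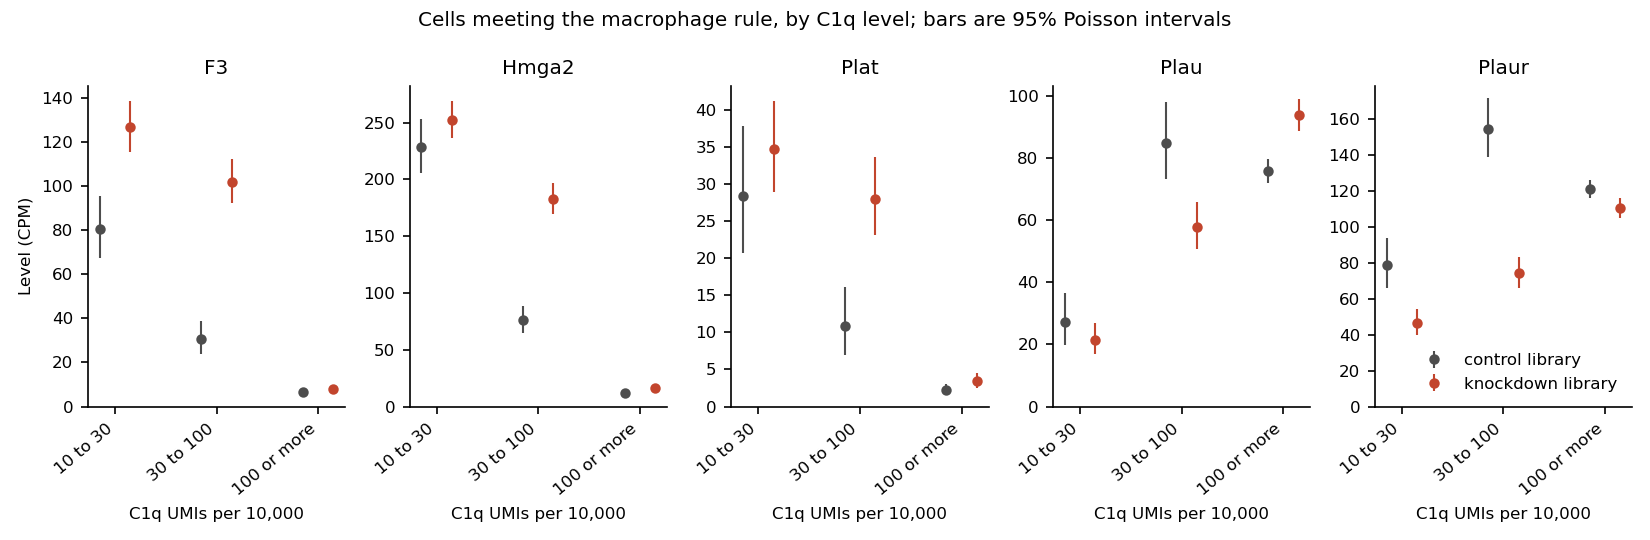
Levels of F3, Hmga2, Plat, Plau and Plaur in CPM (y axis, linear from 0, separate scale per gene) in cells that met the macrophage rule, by C1q UMIs per 10000 (x axis), in the control (grey) and knockdown (red) libraries with 95% Poisson intervals. F3, Hmga2 and Plat fall from left to right in both libraries, with F3 at 6.59 and 7.77 CPM in the right-hand group, while Plau and Plaur do not.

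Plau and Plaur also read differently in high-C1q macrophages. With at least 100 C1q UMIs per 10000, Plau was at 75.6 CPM (71.9 to 79.6) in the control tumour and 93.7 CPM (88.7 to 99.0) in the knockdown tumour, a log2 ratio of 0.31 (0.16 to 0.46). Plaur was at 121.1 CPM (116.4 to 126.1) and 110.5 CPM (105.0 to 116.2), a log2 ratio that went from -0.39 over the whole gate to -0.13. In the 30 to 100 group Plaur was at 155 and 74.3 CPM and Plau at 84.8 and 57.9 CPM. The part of tumour-cell RNA or mixed droplets in these values was not tested.

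Among 10753 genes measured in macrophages, 1129 (10.5%) were at least 1.5-fold higher and 135 (1.26%) at least 1.5-fold lower in the knockdown tumour. Of 5 members measured, F3, Tfpi and Plat were among the higher and none among the lower. Without doublet removal Tfpi (0.21) and Plat (0.45) were under the fold, and at the doublet caller's own threshold F3 (0.50) and Tfpi (0.13) were. With at least 100 C1q UMIs per 10000, 9646 genes were measured, of which 162 (1.68%) were higher and 175 (1.81%) lower, and 0 of 4 members were past the fold either way. These contrasts were known when the members were chosen, and nothing is read from the counts. TMM factors moved all macrophage ratios down by 0.14 and the split to 883 higher and 278 lower, and the Tfpi ratio to 0.48, under the 1.5-fold limit, with F3 at 1.58 and Plat at 1.33.

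Of the other coagulation and fibrinolysis genes, 19 were measured in macrophages, 2 higher and 3 lower, with a median log2 ratio of 0.03 beside 0.10 over all genes. The lower genes were 3 coagulation factors. F10 (factor X) was at 15.9 and 5.72 CPM, a log2 ratio of -1.47 (-1.89 to -1.07), F7 (factor VII, the partner of tissue factor) at 8.18 and 4.97 CPM, and F13a1 (the subunit of the fibrin cross-linking enzyme) at 80.2 and 49.5 CPM. In high-C1q macrophages F10 was still lower, at 13.7 and 6.97 CPM, a log2 ratio of -0.97 (-1.45 to -0.51), and F13a1 was at 86.3 and 64.6 CPM. F7 was at 7.84 and 5.74 CPM there, with a range that held 0. F13a1 is also on the monocyte marker list.

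The higher pair, Anxa2 (392 and 633 CPM) and Mrc2 (4.97 and 11.9 CPM), are genes that tumour-like cells also held, at 1896 and 1817 CPM for Anxa2 and 25.9 and 28.4 CPM for Mrc2. In high-C1q macrophages Anxa2 was at 240 and 217 CPM, below the control value. The other 4 of the 5 highest genes in macrophages were Eno1 (413 and 389 CPM), Anxa5 (374 and 415 CPM), S100a10 (356 and 429 CPM) and Lrp1 (192 and 132 CPM), the endocytic receptor that clears protease and inhibitor complexes. Lrp1 had a log2 ratio of -0.54 (-0.63 to -0.44), under the fold used for the count.

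**Figure D5:**
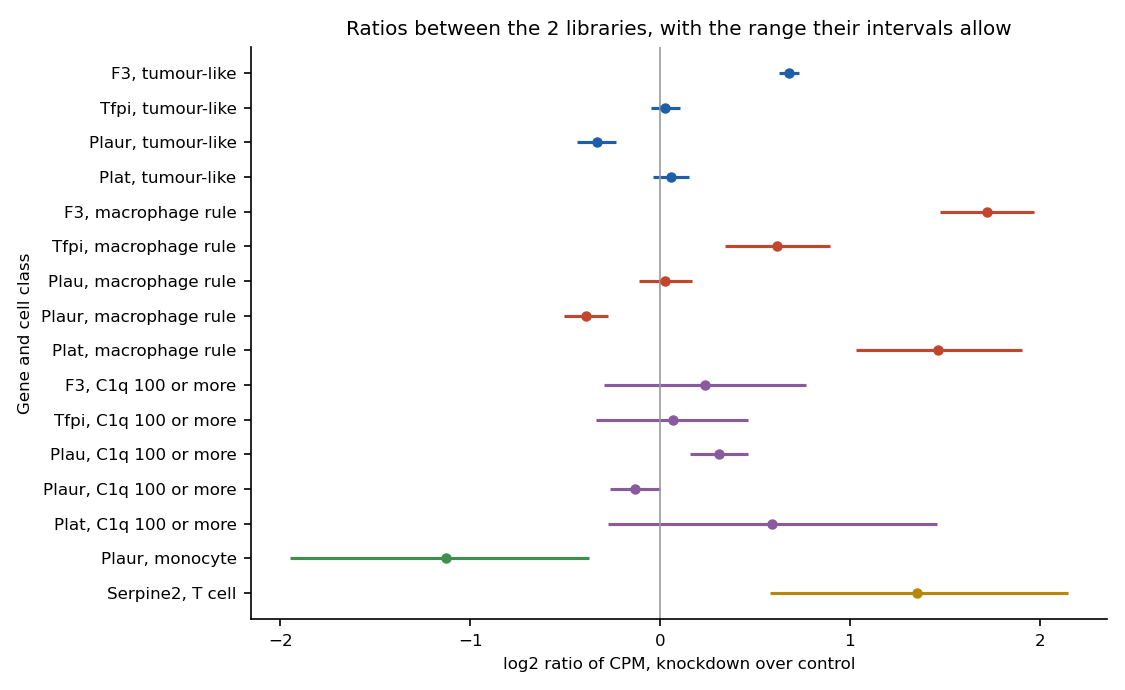
Log2 ratio of CPM, knockdown over control (x axis), for members with enough UMIs in each cell class (y axis); points are the ratios, bars the range that the 95% Poisson intervals allow, and colours the classes. The F3 bar lies above 0 in tumour-like cells and in the macrophage gate and spans 0 in macrophages with at least 100 C1q UMIs per 10000.

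Monocytes held the highest Plaur of any class, and less of it in the knockdown tumour. Plaur was at 489 CPM (430.3 to 553) from 253 UMIs in 144 control monocytes and at 223 CPM (143 to 332) from 24 UMIs in 40 knockdown monocytes, a log2 ratio of -1.13 (-1.95 to -0.37). Thinned to 1000 UMIs, Plaur was found in 34.1% (26.1 to 42.8) of 132 control monocytes, against 21.2% (8.98 to 38.9) of 33 knockdown monocytes, with 12 and 7 cells left out and intervals that overlap. At the deposited depth, with medians of 3267 and 2405 UMIs, the shares were 63.9% and 37.5%.

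Markers of other cell types differed in these cells too, and their part in the Plaur result was not tested. The neutrophil list summed to 1252 CPM in control monocytes against 93.1 CPM in knockdown monocytes, with 1 and 5 of its 8 genes at 0, and S100a8 had 227 UMIs and 1 UMI. The T cell list summed to 21.2 and 326 CPM, with 3 and 0 of its 8 genes at 0. The fibroblast list summed to 276 and 754 CPM, with 2 of its 8 genes at 0 in each library, and the LLC list to 147 and 363 CPM, with 5 of its 10 genes at 0 in each. Among monocytes with under 10 S100a8 and S100a9 UMIs per 10000 the Plaur log2 ratio was -1.16, and among those with under 3 Cd3 UMIs per 10000 it was -1.03. With under 2 C1q UMIs per 10000 it was -1.81, and with at least 40 Lyz2 UMIs -0.74. The other 6 members had at most 11 UMIs each in monocytes, and Plat had 0 in both libraries.

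In monocytes 785 genes were measured, of which 25 (3.18%) were at least 1.5-fold higher and 105 (13.4%) at least 1.5-fold lower in the knockdown tumour. Plaur was the 1 member measured and was among the lower, with nothing read from it as above. TMM factors moved all ratios of this class down by 0.31 and gave 7 higher and 233 lower genes. Of 7 other coagulation and fibrinolysis genes measured, 0 were higher and 1 was lower, Eno1, at 715 and 447 CPM.

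Serpine2, the inhibitor of thrombin and urokinase, was highest in lymphocytes, and T cells held 40 of its 145 control UMIs and 82 of its 205 knockdown UMIs. The far more numerous macrophages held 58 and 52. In T cells it was at 24.1 CPM (17.2 to 32.9) among control cells and 61.7 CPM (49.0 to 76.5) among knockdown cells, a log2 ratio of 1.35 (0.58 to 2.15). In these T cells the dendritic cell list summed to 31.4 and 67.7 CPM, with 4 and 1 of its 9 genes at 0, the endothelial list to 72.4 and 24.8 CPM, with 0 and 5 of 8 at 0, and the fibroblast list to 947 and 695 CPM, with 1 of 8 at 0 in each. Their part in the Serpine2 result was not tested. Among T cells with Cd8a or Cd8b1 it was at 29.8 CPM (20.8 to 41.2) and 61.8 CPM (47.4 to 79.2), a log2 ratio of 1.05 (0.20 to 1.93). After thinning to 1000 UMIs it was found in 2.30% (1.06 to 4.32) of 391 control and 4.91% (2.89 to 7.75) of 346 knockdown T cells, with 10 and 19 left out and overlapping intervals. NK cells had 10 UMIs in each library, at 35.2 and 35.1 CPM. Macrophages were at 2.44 and 2.42 CPM, below the T cells and NK cells in both libraries.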

How the data were processed

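Each deposited matrix holds raw UMI counts, a whole number for every gene in every cell. The file headers name Cell Ranger 6.1.0 as the authors' software, while the submitters' processing notes name Cell Ranger 3.1.0. The genome build and annotation of the counts are not given in the sources used here, and any later filter on cells is not stated. The 7 genes, the cell rules and the gene lists were chosen with earlier results of these data known.

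Cells with under 200 genes (34 control, 19 knockdown) or over 20% mitochondrial UMIs (164 and 72) were dropped. The cells ranked highest by Scrublet score were then taken out as doublets, 0.8% per 1000 cells (1148 and 1322), with exact neighbours. Scrublet's own threshold marked 1125 and 2929. UMIs were summed per class and divided by the summed UMIs of the class to give CPM. A cell could meet more than 1 rule: 12 control and 34 knockdown cells met both the tumour-like and the macrophage rule. No class rule was met by 1070 and 1236 kept cells. T cells needed at least 3 Cd3 UMIs per 10000 and endothelial cells at least 10 UMIs per 10000 of their markers.

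With 1 library per group no test was run. A gene counted as measured with at least 100 UMIs in 1 library, and as higher or lower past 1.5-fold. Named pathway genes are those past that fold or among the 5 highest of their class, and F2r and the high-C1q values were added after the values were seen. Some results are not reported here. Correlations used genes with at least 100 UMIs in each library over groups of at least 20 cells, and the marker lists of the states came from the same libraries. Thinning drew UMIs at random without replacement. Scrublet ran in scanpy 1.11.5, sums and intervals in pandas 2.3.3, numpy 2.4.6 and scipy 1.17.1 under Python 3.11.15, and the scripts were tested on simulated data. Alternatives covered doublets, scaling (TMM and median of ratios), depth, cell weights, gates, states and thresholds.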

Additional observations from a re-analysis of the deposited data

Results flagged for a closer look

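Plau differed between the libraries in opposite directions in 2 macrophage states. Its log2 ratio, knockdown over control, was 0.49 in interferon cells and -0.25 in cells of no state, a gap of 0.7423. Hmga2, a gene of tumour-like cells, was at 45.9 and 125 CPM in those cells of no state and at 29.1 and 32.7 CPM in interferon cells, and the Plau ratio of macrophages with at least 100 C1q UMIs per 10000 was 0.31. Plat did the same in 2 states of tumour-like cells, with 1.11 in Krt16 Klk8 cells and -0.37 in matrix cells, a gap of 1.481. In each case the ranges of the ratios lay on opposite sides of 0 with states taken from a z-score of 1. From a z-score of 2 they did not: Plau was 1.24 (-0.17 to 2.75) in interferon cells and 0.04 (-0.11 to 0.19) in cells of no state, and Plat in matrix cells was -0.36 (-1.21 to 0.48). With 1 library per group neither gap was tested.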

How the results depend on the processing

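Of 140 alternative values of 35 log2 ratios, 108 stayed within counting error of the main value, 32 moved beyond it, and 0 of those past 1.5-fold changed direction. Ratios near 0 did change sign: Plau in macrophages with TMM factors and median of ratios (-0.096), Tfpi in tumour-like cells in 4 alternatives (down to -0.038), Plat there in 2 (-0.0063 and -0.0026), and, from a z-score of 2, Tfpi in cycling cells (-0.24), Plaur in Krt16 Klk8 cells (0.04) and Plat in Cryab Krt14 cells (-0.23). For F3 in tumour-like cells (0.68), TMM factors gave 0.61, median of ratios 0.625 and the control mix of states 0.52. For Plaur there (-0.33), leaving out cells with leukocyte or endothelial UMIs gave -0.20. In macrophages, without doublet removal F3 was 0.91, Tfpi 0.21 and Plat 0.45. At Scrublet's own threshold F3 was 0.50, Tfpi 0.13, Plau 0.30, Plaur -0.17 and Plat 0.64. Without Hmga2 UMIs and with under 5 collagen UMIs per 10000 they were 0.17, 0.23, 0.29, -0.16 and 0.47. With at least 100 C1q UMIs per 10000 they were 0.24, 0.067, 0.31, -0.13 and 0.59. Weighting cells equally gave 1.22 for F3. Plaur was -0.53 with TMM factors, -0.51 with median of ratios and -0.27 after thinning, Plat 2.43 after thinning, and Plau -0.11 with TMM factors. The cause of these moves was not tested. Plaur in monocytes ranged from -1.81 to -0.74 and Serpine2 in T cells from 1.11 to 1.70. The C1q limit of 100, the monocyte subsets by S100a8 and S100a9 and by Cd3 and the T cell alternatives were chosen after seeing the data.

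With at least 30 UMIs the members past 1.5-fold in tumour-like cells went from 1 to 3, and 728 genes were higher and 249 lower in tumour-like cells, 1900 and 265 in macrophages and 358 and 515 in monocytes, where 1 pathway gene was then higher. Past 2-fold there were 63 and 48, 599 and 31, and 5 and 49, with 1 pathway gene higher and 1 lower in macrophages and 0 lower in monocytes. TMM factors gave 216 higher and 110 lower in tumour-like cells. More genes were tested at 30 UMIs by construction. No paired analysis was possible because each group has 1 library. Depth limits Thbd in every class, all members but Plaur in monocytes, and F3, Tfpi and Plat in high-C1q macrophages.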

Other observations

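The 1070 control and 1236 knockdown cells that met no class rule also differed in F3 and Plaur, in the directions seen in tumour-like cells. F3 was at 85.3 CPM (79.4 to 91.5) in the control and 153 CPM (144 to 162) in the knockdown tumour, a log2 ratio of 0.84 (0.66 to 1.03). Plaur was at 53.0 and 34.3 CPM, a log2 ratio of -0.63 (-0.93 to -0.32), and Tfpi at 47.0 and 51.5 CPM, with a range that held 0. Hmga2 was at 245 and 261 CPM in these cells. They come from the same tumours as the tumour-like cells and are no replicate of them.

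Of the 10 control and 13 knockdown cells that met the endothelial rule, Plaur had 14 and 12 UMIs, Tfpi 4 and 11, and Plat 5 and 9. The counts are too few for a ratio.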
